A study of Mus musculus with 2 samples.

Results

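The 9 complement genes C1qa, C1qb, C1qc, C1ra, C1s1, C4b, C3, Masp1 and Cfd were followed through the cell types of young mouse visceral fat. They were found by their symbols among the 56980 genes of the deposited count matrices, and each matched 1 row. The material was visceral adipose tissue (VAT, gonadal) of 2 female C57BL/6J mice aged 2 months, with no treatment or other genotype named, and 1 single-nucleus library per replicate (replicate 1 and replicate 2). P-values measure how far the differences between cell types varied between these 2 libraries, once the library difference common to all types was taken out. That spread was pooled over the cell types and moderated over all genes. Whole-tissue nuclei were captured with the Singleron GEXSCOPE kit by the protocol, whereas the labels give 10x Genomics and adipocytes. Every comparison below is between cell types of the same libraries, so no age or depot was compared.

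Complement is a cascade of plasma proteins that tags particles and cells for uptake and can lyse them. In the classical pathway, C1q, built from the chains of C1qa, C1qb and C1qc, binds its target and switches on the serine proteases C1r and C1s, which cleave C4. In the lectin pathway, Masp1 is among the proteases that are switched on when lectins bind sugars, and in the alternative pathway factor D (Cfd, also called adipsin) cuts factor B on C3b. All routes meet at C3. Fat is known for making adipsin, and macrophages for making C1q.

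Of 24492 called barcodes, 15058 had over 500 genes, over 1000 unique molecular identifiers (UMIs) and under 15% mitochondrial UMIs, 2833 in replicate 1 and 12225 in replicate 2. These nuclei held 8466237 and 48068273 UMIs, with medians of 2221 and 2726 per nucleus, and their median mitochondrial share was 6.20% and 0.621%. The libraries shared 85 called barcodes, 27 of them after the filters. Clusters were drawn without the complement genes. Tested were the 5 types with at least 20 nuclei in each library, which were adipocytes (1575 and 4476), mesothelial nuclei (249 and 2111), FAPs, the fibro-adipogenic progenitors of fat (252 and 1323), macrophages (228 and 972) and endothelial nuclei (80 and 532). In their largest clusters 8 of 10 adipocyte, 10 of 10 mesothelial, 8 of 8 FAP and 8 of 8 macrophage markers were raised, and in the endothelial clusters 7 or 8 of 8. The mesothelial cluster also raised 5 FAP markers, and 1 endothelial cluster, led by Rgs5, raised 5 adipocyte and 6 smooth muscle and pericyte markers. Unnamed clusters held 14.2% and 20.8% of the nuclei and were not tested. Levels are CPM, a gene's UMIs scaled to all UMIs of a type in a library after both were summed over its nuclei. A level thus describes RNA in nuclei, and a gene was called higher in a type at a log2 fold change of at least 1 against the mean of the other 4 types and an adjusted p under 0.05 by edgeR.

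Each of the 9 genes was called higher in at least 1 type, in 13 of 45 gene and type pairs. The share of all genes called in at least 1 type was not counted. Only the counts per type that follow can therefore be set beside all genes. Macrophages had 4 of the 9 genes (C1qa, C1qb, C1qc and C4b), against 9.89% of all 16254 genes tested. Mesothelial nuclei had 3 (C3, C1ra and C1s1), against 9.27% of all genes, and FAPs had the same 3, against 7.45%. Adipocytes had Masp1 and Cfd, against 16%, and endothelial nuclei had Cfd alone, against 5.25%, a call that was lost under several alternatives (described with Cfd).

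**Figure D1:**
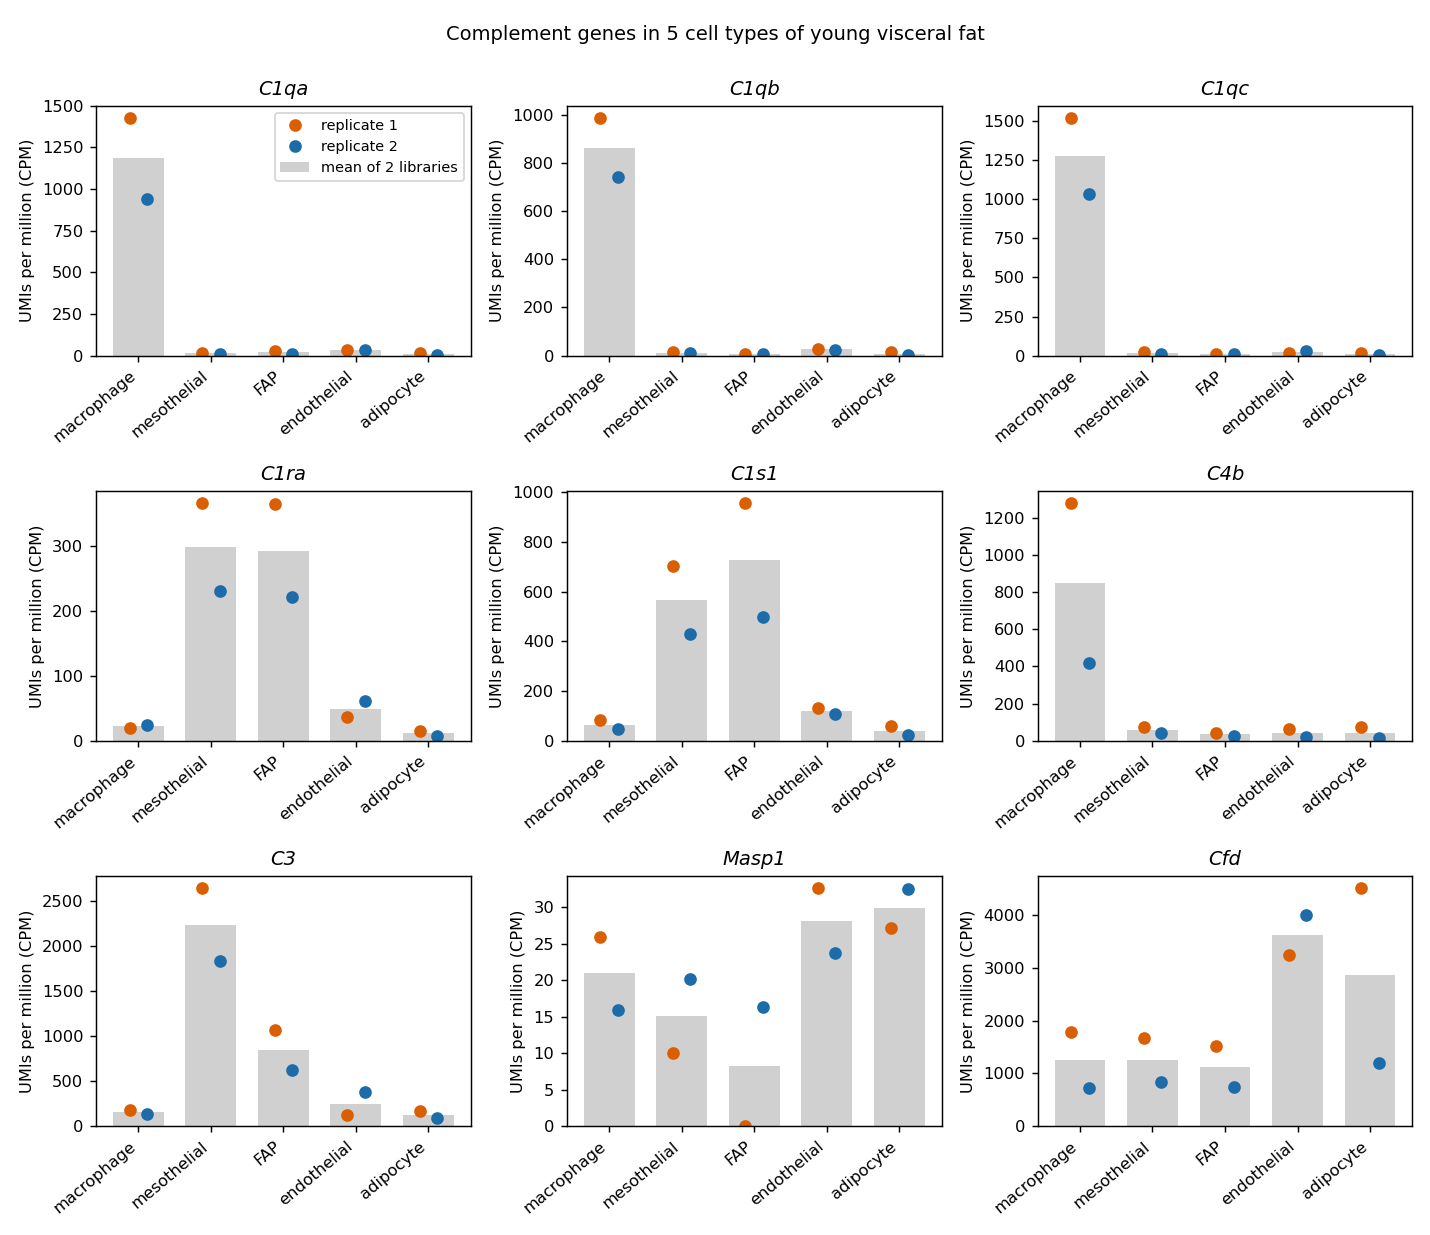
Level of each gene (CPM, linear axes that start at 0 and differ between panels) in 5 cell types, with replicate 1 in orange, replicate 2 in blue and the mean of the 2 libraries as a grey bar. The 3 C1q genes and C4b stand in macrophages, C3 in mesothelial nuclei, C1ra and C1s1 in mesothelial nuclei and FAPs, while Cfd is at 718 CPM or more in every sum shown.

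**Figure D2:**
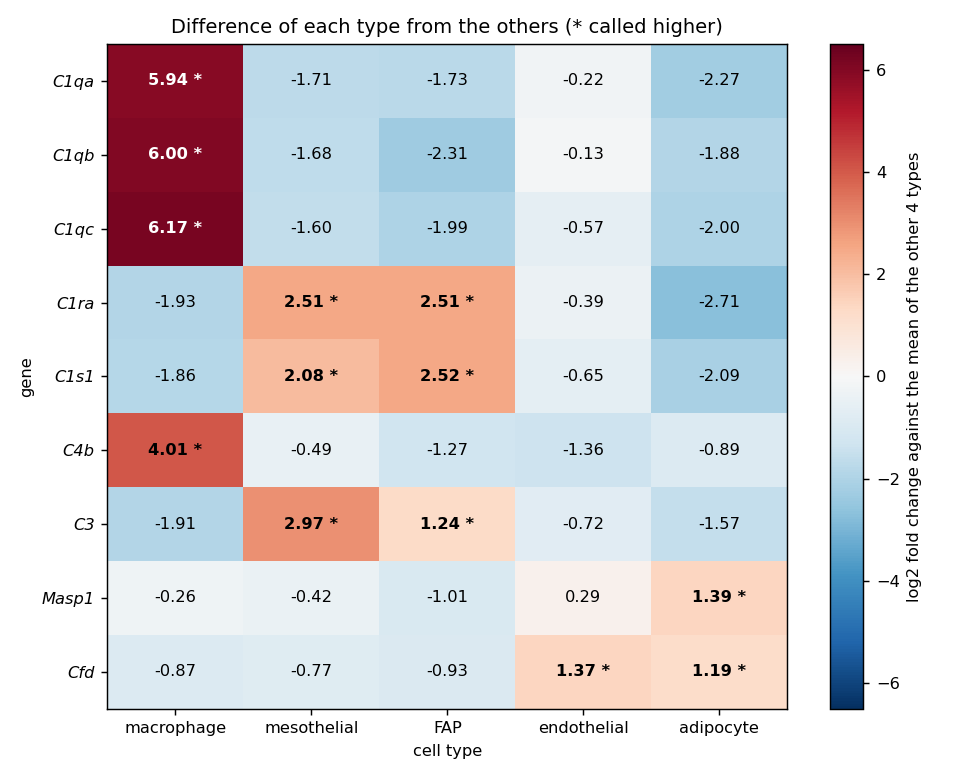
Log2 fold change of each gene (rows) in each cell type (columns) against the mean of the other 4 types, with red above 0 and blue below. Asterisks mark the 13 pairs called higher, of which C1qc in macrophages (6.17) has the largest value.

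The 3 C1q genes lie side by side on the minus strand of chromosome 4, within 20153 bases (GRCm39, GENCODE vM39). C1qa (ENSMUSG00000036887) spans chr4:136623223-136626161, C1qc (ENSMUSG00000036896) chr4:136616466-136620376 and C1qb (ENSMUSG00000036905) chr4:136606009-136613511. C1qb and C1qc overlap Gm69251 on the other strand. The 250 bases before the RefSeq start sites of C1qb and C1qc are shown because these genes moved together, with the PU box GAGGAA, the core bound by the myeloid factor PU.1, in capitals on either strand (TTCCTC on the reverse). The build of these sequences is GRCm38.p6, at chr4:136886201-136886450 for C1qb and chr4:136892915-136893164 for C1qc, both read from the minus strand.
C1qb: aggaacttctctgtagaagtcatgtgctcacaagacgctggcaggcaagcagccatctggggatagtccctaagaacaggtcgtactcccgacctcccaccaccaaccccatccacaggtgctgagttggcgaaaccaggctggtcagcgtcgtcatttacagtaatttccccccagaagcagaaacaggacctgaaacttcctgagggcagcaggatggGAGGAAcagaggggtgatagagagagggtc
C1qc: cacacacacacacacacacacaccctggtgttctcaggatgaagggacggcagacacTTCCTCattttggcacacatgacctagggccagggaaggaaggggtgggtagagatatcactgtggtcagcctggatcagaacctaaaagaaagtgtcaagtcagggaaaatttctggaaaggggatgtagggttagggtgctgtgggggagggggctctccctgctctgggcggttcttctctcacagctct
The motif starts 30 bases before the start of C1qb and 193 bases before that of C1qc. In windows of 250 bases before to 50 after the start, 28.3% of 27025 promoters held it on either strand, and so did 3 of the 6 complement genes with an entry (C1qb, C1qc and C1ra). TATAAA was in 14.2% of promoters and in that of C3, and CCAAT was in 37.9% and in none of the 6. C4b, C1qa and Masp1 had no entry among the promoters used here. These matches describe letters in a window and not binding.

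C1q transcripts were carried by macrophages. C1qa was at 1429 CPM in replicate 1 and 940.5 CPM in replicate 2 in macrophages (mean 1185 ± 345, SD, n = 2), and endothelial nuclei came next with 36.7 and 31.9 CPM. The macrophage sums stood far above all others, and the log2 fold change against the other types was 5.94 ± 0.17 (SE; adjusted p = 1.62e-49, edgeR). C1qb was at 987 and 739 CPM in macrophages against 28.6 and 24.5 CPM in endothelial nuclei, with a log2 fold change of 6.00 ± 0.17 (adjusted p = 3.39e-49, edgeR). C1qc was at 1521 and 1034 CPM against 20.4 and 27.5 CPM in endothelial nuclei, with a log2 fold change of 6.17 ± 0.17 (adjusted p = 1.35e-50, edgeR). In every other type the 3 genes were at 3.73 to 36.7 CPM. The endothelial values stood above those of the next type without overlap for C1qa and C1qb but not for C1qc. In replicate 1 they rested on 9 C1qa and 7 C1qb UMIs. The exact Poisson 95% interval of C1qa there, 16.8 to 69.7 CPM, overlapped that of FAPs (17.9 to 49.3). Neighbouring types below overlapped, while C1qb in mesothelial nuclei (13.4 and 9.78 CPM) did not overlap with FAPs (5.43 and 7.47 CPM). That C1qb order rested on 8 mesothelial and 3 FAP UMIs in replicate 1. In the endothelial subcluster rich in adipocyte RNA (described with C3), C1qa was at 55.0 and 56.2 CPM. The next subcluster had 2 and 1 C1qa UMIs, or 43.2 CPM (exact Poisson 95% interval 5.24 to 156) and 3.59 CPM (0.091 to 19.98).

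Against endothelial nuclei alone, where 8.10% of all genes were higher in macrophages at an adjusted p under 0.05, the log2 fold changes were 4.92 for C1qa, 4.91 for C1qb and 5.39 for C1qc. Without the subclusters rich in adipocyte RNA they were 6.74, 6.53 and 7.74. All 3 passed in the fit with all nuclei (adjusted p of 5.99e-26, 2.28e-25 and 1.63e-27, edgeR). Macrophage nuclei held 79.9% and 86.5% of all C1qa UMIs in the filtered nuclei of the 2 libraries. For C1qb the shares were 81.4% and 85.9%, and for C1qc 83.3% and 87.7%.

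After each nucleus was thinned to 1000 UMIs, 55.7% of macrophage nuclei in replicate 1 (exact Clopper-Pearson 95% interval 49.0 to 62.3) and 43.2% in replicate 2 (40.1 to 46.4) had a C1qa UMI, or 67.1% and 56.3% without thinning. In adipocytes, which are not known as a source of C1q, the thinned shares were 1.97% and 0.54%. The median depths before thinning were 1646.5 and 1920 UMIs in macrophages and 2953 and 6188 in adipocytes. These and the other intervals here cover counting error only.

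The 3 chains were met in the same nuclei. Of macrophage nuclei with a C1qa UMI, 72.5% (64.8 to 79.4) in replicate 1 and 76.1% (72.2 to 79.6) in replicate 2 also had C1qb, against 32.0% and 29.6% of those without C1qa. For C1qc the shares were 83.0% and 82.1% with C1qa, and 41.3% and 30.8% without. Nuclei with a C1qa UMI were deeper, with medians of 1750 against 1437 UMIs and 2081 against 1726, and the part of depth in these shares was not tested. All 3 chains were seen in 42.5% and 38.2% of macrophage nuclei, and none in 14.9% and 24.4%.

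C1q differed among the macrophage clusters. The cluster led by Cd209f, Cd163 and Mrc1, markers of resident macrophages, had 144 and 742 nuclei and C1qa at 1772 CPM (exact Poisson 95% interval 1625 to 1927) and 1147 CPM (1098 to 1198). The cluster led by Lyz1 and Ccr2, the latter a receptor of recruited monocytes, had 48 and 149 nuclei and C1qa at 144 CPM (80.5 to 237) and 136 CPM (99.2 to 181). It raised 7 macrophage and 3 dendritic markers, and its leading genes also included H2-Eb1, H2-Ab1, H2-Aa and Cd74. C1qb was at 288 and 168 CPM and C1qc at 192 and 130 CPM in the Ccr2 cluster, so that all 3 chains were lower there in both libraries. In the smallest cluster, led by Ly6c2 and Chil3, no C1qa UMI was found in 8 and 24 nuclei, which allows up to 193 and 57.9 CPM at 3 counts. Such clusters were drawn from the same nuclei, and their levels are a description.

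**Figure D3:**
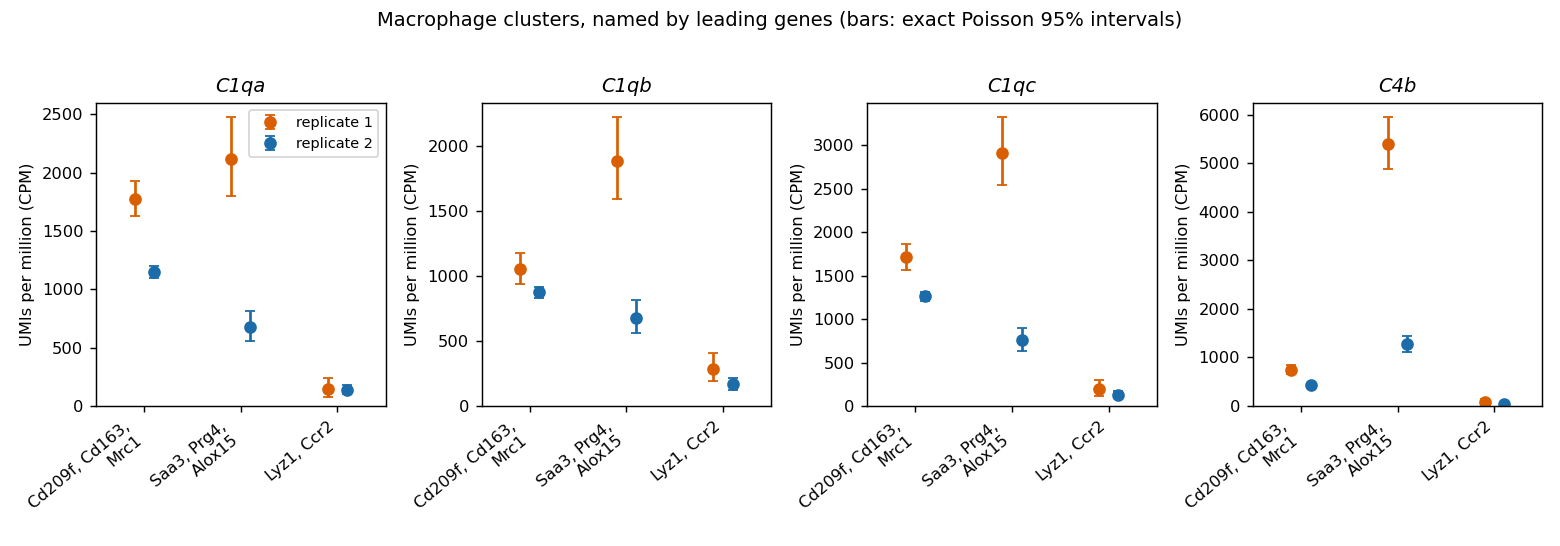
C1qa, C1qb, C1qc and C4b (CPM, linear axes from 0) in 3 macrophage clusters named by their leading genes, with replicate 1 in orange, replicate 2 in blue and exact Poisson 95% intervals. The Lyz1 and Ccr2 cluster is lowest for all 4 genes in both libraries, and C4b reaches 5393 and 1269 CPM in the Saa3 cluster.

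C4b encodes complement C4, the substrate of C1s, and was also a macrophage gene here. It lies at chr17:34947354-34962912 on the minus strand (ENSMUSG00000073418). In macrophages it was at 1279 CPM in replicate 1 and 420 CPM in replicate 2 (849 ± 608, SD, n = 2), and in the other types at 13.7 to 73.8 CPM. The lower macrophage sum was still well above every other sum, with a log2 fold change of 4.01 ± 0.16 (adjusted p = 7.70e-39, edgeR). Against mesothelial nuclei, the next type, the log2 fold change was 3.60 ± 0.25 (adjusted p = 7.97e-23, edgeR), where 10.1% of all genes were higher in macrophages. It was 2.39 at a mitochondrial limit of 5%. Below macrophages the libraries overlapped between all neighbouring types. The near-identical gene C4a had 110 UMIs in all nuclei against 3149 of C4b, and reads that fit both copies could have been split or lost in counting.

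A small cluster held much of the macrophage C4b in replicate 1 and less in replicate 2. The macrophages led by Saa3, Prg4 and Alox15, a cluster with 4 of 8 macrophage markers raised, were 28 and 57 nuclei, or 12.3% and 5.86% of the macrophages. They held 62.8% and 21.6% of the macrophage C4b UMIs, at 5393 CPM (4878 to 5946) and 1269 CPM (1103 to 1452). The Cd209f cluster was at 748 and 425 CPM, and the Ccr2 cluster at 76.7 and 35.4 CPM. Alox15 and Prg4 are known from large peritoneal macrophages. C1qa in the Saa3 cluster was at 2120 and 680 CPM, above the Cd209f cluster in replicate 1 and below it in replicate 2. Without that cluster C4b was at 559 and 354 CPM in macrophages, and the log2 fold change was 3.34 ± 0.18 (adjusted p = 6.49e-24, edgeR). Of macrophage nuclei with C1qa, 59.5% and 55.8% also had a C4b UMI, against 21.3% and 16.9% of those without C1qa.

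The proteases C1ra and C1s1 were shared by mesothelial nuclei and FAPs. C1ra spans chr6:124489364-124500402 on the plus strand (ENSMUSG00000055172) and C1s1 chr6:124507297-124559389 on the minus strand (ENSMUSG00000038521), 6894 bases apart. C1ra was at 367 and 231 CPM in mesothelial nuclei and at 366 and 221 CPM in FAPs, then at 36.7 and 60.9 CPM in endothelial nuclei. The mesothelial and FAP sums overlapped, and both stood apart from the other types, with log2 fold changes of 2.51 ± 0.17 each (adjusted p of 3.52e-23 in mesothelial nuclei and 6.31e-23 in FAPs, edgeR). Between them the log2 difference was 0.00 with an approximate 95% interval of -0.43 to 0.44, where 5.95% of all genes were higher in mesothelial nuclei.

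C1s1 was at 956 and 497 CPM in FAPs and at 703 and 430 CPM in mesothelial nuclei, against 131 and 107 CPM in endothelial nuclei. FAPs were the higher of the leading types in each library, but their ranges overlapped. The log2 fold change was 2.52 ± 0.15 in FAPs and 2.08 ± 0.15 in mesothelial nuclei (adjusted p of 8.76e-27 and 2.75e-21, edgeR). FAPs exceeded mesothelial nuclei by 0.36 ± 0.20 on the log2 scale (adjusted p = 0.361, edgeR; approximate interval -0.04 to 0.76), where 5.89% of all genes were higher in FAPs. The difference was 1.07 (adjusted p = 0.0048, edgeR) under a mitochondrial limit of 5%, where 82 mesothelial nuclei of replicate 1 entered.

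The pair was also met in single nuclei. Among mesothelial nuclei with a C1s1 UMI, 51.6% (43.5 to 59.6) and 41.8% (38.8 to 44.7) had C1ra, against 33.7% and 24.9% of those without C1s1. Among FAPs the shares were 45.5% and 39.8% with C1s1, and 28.9% and 23.3% without. Nuclei with C1s1 were deeper here too, with medians of 2130 against 1536 and 2175.5 against 1715 UMIs in mesothelial nuclei. After thinning, C1s1 was seen in 52.0% and 35.3% of FAPs and in 43.8% and 32.5% of mesothelial nuclei, but in 6.98% and 2.46% of adipocytes. The paralogs C1rb and C1s2 had 53 and 79 UMIs in all nuclei against 3063 and 6793 of C1ra and C1s1. C1s1 overlaps C1rb on the other strand. Whether the kit marks strand is not given in the sources used here, so reads of overlapping genes cannot be told apart.

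C3, the protein on which all pathways converge, was highest in mesothelial nuclei, the lining cells of the visceral surface. It lies at chr17:57510964-57535155 on the minus strand (ENSMUSG00000024164). Its level was 2641 CPM in replicate 1 and 1833 CPM in replicate 2 in mesothelial nuclei (2237 ± 572, SD, n = 2) and 1072 and 626 CPM in FAPs. Endothelial nuclei had 118 and 381 CPM, macrophages 174 and 132 CPM and adipocytes 166 and 89.2 CPM. Mesothelial nuclei and FAPs did not overlap with each other or with the types below, whereas the lower 3 types overlapped among themselves. The log2 fold change was 2.97 ± 0.17 in mesothelial nuclei (adjusted p = 1.07e-27, edgeR) and 1.24 ± 0.18 in FAPs (adjusted p = 4.93e-08, edgeR), and the FAP value was 1.76 from replicate 1 alone and 0.96 from replicate 2 alone.

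Mesothelial nuclei exceeded FAPs by 1.38 ± 0.25 on the log2 scale (adjusted p = 5.88e-06, edgeR). That difference was 0.35 (adjusted p = 0.528, edgeR) under a mitochondrial limit of 5%, where the class held 82 and 3325 mesothelial nuclei, and 1.36 (adjusted p = 0.179, edgeR) with no replicate block. After thinning, 77.1% (71.4 to 82.2) and 72.4% (70.5 to 74.3) of mesothelial nuclei had a C3 UMI, 85.9% and 87.1% without thinning. In FAPs 48.4% and 39.6% had a UMI after thinning, and in macrophages 12.3% and 11.5%. Mesothelial nuclei gave 46.2% and 58.4% of all C3 UMIs, and adipocytes 27.9% and 15.9% through their number and depth.

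Within mesothelial nuclei, FAPs, macrophages and endothelial nuclei, 1 subcluster each was rich in adipocyte RNA. The mesothelial one (33 and 224 nuclei, median 4541 UMIs) had C3 at 1302 and 693 CPM, whereas the level was 3227 and 2328 CPM in the largest mesothelial subcluster (165 and 1174 nuclei, median 2010 UMIs). C1s1 was at 351 and 185 CPM against 841 and 550 CPM, and C1ra at 167 and 90.9 CPM against 443 and 291 CPM. The FAP one (23 and 144 nuclei, median 4237 UMIs) had C1s1 at 376 and 218 CPM, whereas the largest FAP subcluster had 1067 and 586 CPM. In mesothelial nuclei and FAPs the 3 genes were thus lower, and Cfd higher, where adipocyte RNA and depth were high. In endothelial nuclei of replicate 2 they were higher in the subcluster rich in adipocyte RNA than in the next, with C3 at 597 and 197 CPM, C1s1 at 171 and 53.8 CPM and C1ra at 73.9 and 43.0 CPM. The part of doublets and of free RNA in these subclusters was not tested. Without the 4 subclusters, 766 nuclei in all, the log2 fold change of C3 in mesothelial nuclei was 3.39, the highest of its alternatives, and the lowest was 2.11 at a mitochondrial limit of 5%.

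Masp1, which encodes a lectin pathway protease, was the rarest of the genes, with 1653 UMIs in all filtered nuclei. UMIs were counted per gene and do not tell its transcripts apart. It lies at chr16:23268167-23339779 on the minus strand (ENSMUSG00000022887). In adipocytes it was at 27.2 CPM in replicate 1 and 32.5 CPM in replicate 2, and in endothelial nuclei at 32.7 and 23.7 CPM. Macrophages had 26.0 and 15.9 CPM, mesothelial nuclei 10.1 and 20.1 CPM, and FAPs no UMI in replicate 1, which allows up to 5.43 CPM at 3 counts, and 16.4 CPM in replicate 2. The ranges of neighbouring types overlapped throughout. Adipocytes were called higher than the mean of the other types with a log2 fold change of 1.39 ± 0.26 (adjusted p = 2.65e-06, edgeR). Over the alternatives the value ran from 1.14 (DESeq2, adjusted p = 0.0419) to 2.65 (15 components), with 1.75 from replicate 1 alone and 1.36 from replicate 2 alone. The mean behind the 1.75 includes the FAP sum with no UMI, so that value depends on the count model and is not exact. Against endothelial nuclei alone, where 21.7% of all genes were higher in adipocytes, the log2 difference was 0.88 ± 0.41 (adjusted p = 0.0759, edgeR; approximate interval 0.09 to 1.68). That difference was 0.28 from replicate 1 alone and 1.00 from replicate 2 alone. The fitted changes include TMM factors and a count model, and so can differ from ratios of CPM.

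Among adipocytes Masp1 was at 29.95 and 38.2 CPM in the main subcluster (1429 and 3764 nuclei) and at 6.08 and 7.26 CPM in the subcluster led by Ucp1 and Cidea, genes of heat-producing fat (146 and 712 nuclei). The ratio was 4.93 and 5.26, in the same direction in both libraries. For the other members that ratio ranged from 0.79 to 3.72, and for Cfd it was 1.36 in each library. After thinning, 2.35% and 2.70% of adipocytes had a Masp1 UMI, near the shares of 0 to 3.51% in the other 4 types tested, so the thinned shares show no order of types. Adipocytes gave 74.3% and 65.9% of its UMIs. The gene overlaps Rtp4, Gm49514 and Gm45338 on the other strand.

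Cfd was detected in every type. It encodes adipsin and lies at chr10:79726668-79728496 on the plus strand (ENSMUSG00000061780). In adipocytes it was at 4518 CPM in replicate 1 and 1203 CPM in replicate 2, and in endothelial nuclei at 3257 and 4005 CPM. Mesothelial nuclei had 1673 and 836 CPM, macrophages 1781 and 718 CPM and FAPs 1525 and 737 CPM. Replicate 1 was higher except in endothelial nuclei, and the ranges of all neighbouring types overlapped. Within each library adipocytes were above mesothelial nuclei, macrophages and FAPs. With the library as a block they exceeded these types by 1.57, 1.65 and 1.69 on the log2 scale (adjusted p of 8.30e-08, 2.40e-08 and 1.31e-08, edgeR). In CPM, adipocytes were at 2.70 times the mesothelial level in replicate 1 and 1.44 times in replicate 2, both less than the fitted 1.57 means. The fitted values for Cfd, also those against the mean of the other types, include TMM factors and a count model. The part of each in this gap was not tested. The log2 fold change against the mean of the other types was 1.19 ± 0.18 in adipocytes (adjusted p = 1.51e-08, edgeR) and 1.37 ± 0.18 in endothelial nuclei (adjusted p = 1.89e-09, edgeR). Endothelial nuclei and adipocytes differed by 0.15 ± 0.25 (adjusted p = 0.657, edgeR; approximate interval -0.33 to 0.63), where 17.2% of all genes were higher in endothelial nuclei.

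Endothelial Cfd was higher in the subcluster rich in adipocyte RNA than in the next. Its 33 and 177 nuclei had Cfd at 6019 and 7139 CPM, above adipocytes in both libraries, with Adipoq at 1276 and 1003 CPM against 952 and 334 CPM in adipocytes. The next endothelial subcluster (28 and 172 nuclei) had Cfd at 2400 and 929 CPM. Without the adipocyte-RNA-rich subclusters, a choice made after seeing the data, the endothelial log2 fold change was -0.060 and that against adipocytes -1.69. Since these nuclei were picked for adipocyte RNA, of which Cfd is one, the values describe the choice and are no test. The endothelial call was lost with no replicate block (1.05, adjusted p = 0.334, edgeR), at a mitochondrial limit of 5% (0.81) and with 15 components (0.22). The value was 0.36 from replicate 1 alone and 2.11 from replicate 2 alone. The adipocyte call held under every tested alternative except DESeq2, which gave 0.94 (adjusted p = 0.00803), and the value was 1.65 from replicate 1 alone and 0.64 from replicate 2 alone.

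Cfd was set beside 12 other RNAs of adipocytes (Adipoq, Plin1, Plin4, Car3, Lpl, Cidec, Fasn, Scd1, Lep, Retn, Fabp4 and Acsl1), each as a percent of its level in the adipocytes of the same library. In replicate 1 Cfd lay among them. It was at 37.0% in mesothelial nuclei, where the others ran from 19.7% to 45.4% with a median of 34.5%. In FAPs it was at 33.8% (others 14.4% to 39.1%) and in macrophages at 39.4% (19.8% to 48.4%). In replicate 2 Cfd lay above all 12 in each of the 4 types tested beside adipocytes. It was at 69.5% in mesothelial nuclei (24.7% to 57.1%), 61.2% in FAPs (20.2% to 45.1%) and 59.7% in macrophages (21.7% to 50.8%). In endothelial nuclei it was at 72.1% in replicate 1, with Fabp4, which vessels also express, above it at 157%, and at 333% in replicate 2, above all 12.

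**Figure D4:**
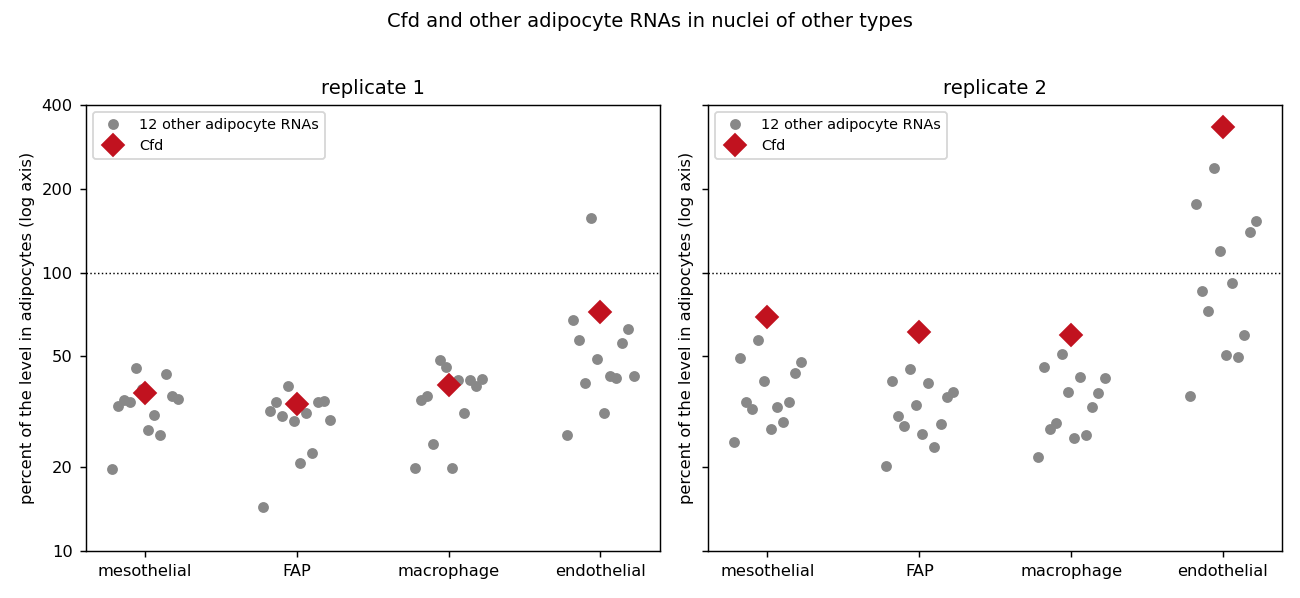
Level in 4 other cell types as a percent of the level in adipocytes of the same library (log axis), for Cfd (red diamonds) and 12 other adipocyte RNAs (grey points), with the dotted line at 100%. Cfd lies within the grey points in replicate 1 and above all of them in replicate 2.

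Cfd was also set against Car3, as a ratio of their UMIs. In replicate 1 the ratio was 1.26 (exact 95% interval 1.24 to 1.29) in adipocytes, 1.35 (1.22 to 1.48) in mesothelial nuclei, 1.24 (1.12 to 1.38) in FAPs and 1.38 (1.25 to 1.53) in macrophages. In replicate 2 it was 0.30 (0.29 to 0.30) in adipocytes but 0.60 (0.58 to 0.62), 0.60 (0.57 to 0.63) and 0.65 (0.61 to 0.69) in the other 3. Endothelial nuclei had 1.59 and 1.15. Called barcodes that failed the filters had 2.17 and 0.83. In replicate 1 the intervals of mesothelial nuclei, FAPs and macrophages overlapped that of adipocytes and the endothelial one did not, while in replicate 2 all 4 types were above adipocytes. Against Adipoq the gap in replicate 2 was smaller, with 3.60 Cfd UMIs per Adipoq UMI in adipocytes, 5.09 in mesothelial nuclei, 5.43 in FAPs, 4.71 in macrophages and 6.82 in endothelial nuclei. In both libraries the highest ratio to Car3 of these groups was found outside adipocytes.

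Cfd was higher in nuclei with a higher mitochondrial share in most types. In adipocytes of replicate 1 it was at 1977 CPM in nuclei with under 2% mitochondrial UMIs, 3262 CPM at 2 to 5% and 6090 CPM at 5 to 15% (228, 556 and 791 nuclei). In replicate 2 it was at 1128, 4076 and 14096 CPM (4378, 82 and 16 nuclei, the last a thin bin). Car3 was at 3222 and 3671 CPM in the lowest and the highest bin of replicate 1 and at 4034 and 7679 CPM in replicate 2. Cfd thus rose 3.08-fold and 12.5-fold across the bins, against 1.14-fold and 1.90-fold for Car3 and 2.09-fold and 6.29-fold for Adipoq. The Cfd ratio of the highest to the lowest bin was 2.85 and 13.9 in FAPs, 1.89 and 14.3 in endothelial nuclei, 2.28 and 3.83 in macrophages and 0.67 and 5.01 in mesothelial nuclei, where the lowest bin of replicate 1 held 16, 4, 8 and 1 nuclei. In bins under 2%, which hold most nuclei of replicate 2, Cfd there was 1128 CPM in adipocytes, 884 CPM in endothelial nuclei, 707 CPM in mesothelial nuclei, 668 CPM in macrophages and 566 CPM in FAPs.

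**Figure D5:**
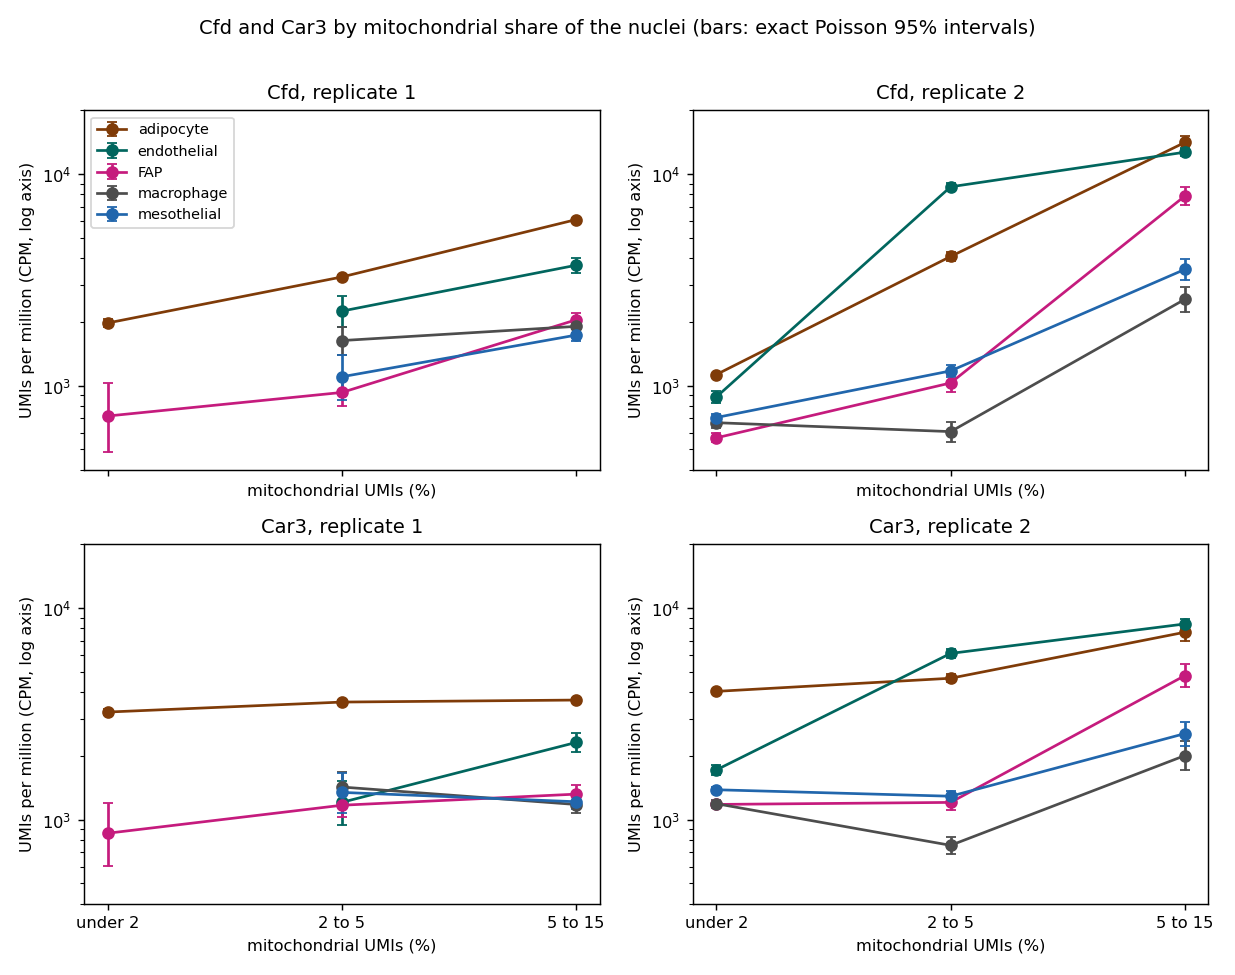
Cfd and Car3 (CPM, log axis) in nuclei binned by the share of mitochondrial UMIs, per cell type and library, with exact Poisson 95% intervals; bins of under 10 nuclei are not drawn. In adipocytes Cfd goes from 1977 to 6090 CPM in replicate 1 and from 1128 to 14096 CPM in replicate 2, while Car3 changes less.

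The share of nuclei with a Cfd UMI had the same order of the 5 tested types in both libraries. After thinning it was 90.0% and 60.6% in adipocytes, 78.8% and 53.6% in endothelial nuclei, 68.3% and 43.2% in mesothelial nuclei, 65.8% and 41.5% in macrophages and 59.5% and 37.3% in FAPs. In T and NK nuclei, which should lack the gene, it was 42.9% of 14 and 32.7% of 101 nuclei, with median depths of 1333 and 1470 UMIs. Without thinning the shares were 98.1% and 95.1% in adipocytes and 64.3% and 42.6% in T and NK nuclei. Whether free adipocyte RNA gave the Cfd of other types was not tested, since no empty droplets with their genes were used here.

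Smaller classes were described without a test. T and NK nuclei (14 and 101) and dendritic nuclei (13 and 41) had C1qa at 0 to 25.1 CPM and C4b at 0 to 47.4 CPM. The 14 T and NK and 13 dendritic nuclei of replicate 1 had no C1qa UMI, which allows up to 142 and 83.2 CPM at 3 counts, near the level of the Ccr2 macrophages for the T and NK nuclei. Smooth muscle and pericyte nuclei (19 and 95) had C1s1 at 437 and 301 CPM, between FAPs and endothelial nuclei, and C1ra at 0 and 80.1 CPM. Lymphatic endothelial nuclei were 28, in replicate 2 alone, with C3 at 164 CPM and C1s1 at 87.3 CPM. The unnamed nuclei had Cfd at 4826 and 1673 CPM, above the adipocyte level of each library, and C3 at 224 and 187 CPM.

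Of 47 other complement genes listed for the rest of the pathway, 46 had a UMI, 31 were tested and 22 were called higher in a type. For the 22, too, no share of all genes called in any type was counted, so that number has no background. Macrophages had 12 of the 31, against 9.89% of all genes (median log2 fold change of the list 0.69, of all genes -0.02), among them all 7 receptors tested. Of 9 receptors listed 8 had a UMI, and the integrin Itgam had none, for a reason that was not tested. C5ar1, a receptor of the C5a peptide, was at 330 and 217 CPM in macrophages and at most 8.16 CPM in the other types (log2 fold change 6.09 ± 0.23; adjusted p = 1.13e-40, edgeR). C3ar1, the receptor of C3a, was at 148 and 116 CPM there against at most 5.43 CPM elsewhere. Macrophages also had Fcna, a ficolin that starts the lectin pathway, at 468 and 442 CPM, and Cfp, properdin, which stabilises the C3 convertase, at 590 and 273 CPM.

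The regulators were divided. Mesothelial nuclei had 6 of the 31 other genes called higher, against 9.27% of all genes (median log2 fold change -0.14, all genes -0.06). FAPs had 5, or 3 with no integration, against 7.45% (median -0.60, all genes -0.05). Serping1, the inhibitor of C1r and C1s, was at 475 and 338 CPM in mesothelial nuclei and 424 and 269 CPM in FAPs, the types that led for C1ra and C1s1, and at most 58.6 CPM elsewhere. Its log2 fold change was 2.96 ± 0.16 in mesothelial nuclei and 2.69 ± 0.17 in FAPs (adjusted p of 1.91e-28 and 2.66e-25, edgeR). Cd55, which speeds the decay of convertases on membranes, was at 1023 and 585 CPM in FAPs and at most 81.6 CPM in the other types (log2 fold change 4.37 ± 0.16; adjusted p = 1.43e-41, edgeR). Clu, clusterin, was at 453 and 230 CPM in mesothelial nuclei.

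Adipocytes had 3 of the 31 called higher, C1rl, Cd59a and Cd59b, a share below the 16% of all genes (median log2 fold change of the list -1.33, of all genes 0.03). The adipocyte count was 1 at a clustering resolution of 0.3 and 1 with no integration. Endothelial nuclei had 3, Cd93, Cd59a and Vtn, or 1 with no replicate block, against 5.25% of all genes (median -0.17, all genes -0.10). Cd59a and Cd59b, which block the lytic pore, were at 52.3 and 26.9 CPM and at 24.8 and 25.4 CPM in adipocytes. Factor B, the substrate of Cfd, was low, since Cfb was at 18.4 and 8.25 CPM in mesothelial nuclei, where it was called higher (log2 fold change 1.52 ± 0.48; adjusted p = 0.0123, edgeR), and at 8.20 and 1.40 CPM in adipocytes.

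The genes most alike in pattern were found by Pearson's r of log2(CPM + 1) over the 10 sums of library and type, centred within each library, among 16317 genes with at least 100 UMIs. The sums share 2 libraries and 5 types, so r describes them and was not tested. C1qa was nearest to Themis2 (0.995), Mrc1 (0.994) and Retnla (0.994), C1qb to Ptpn18 (0.998), Grk2 (0.994) and Cd163 (0.993), and C1qc to Lyz2 (0.997), H2-Eb1 (0.997) and F13a1 (0.996). C4b was nearest to Ikzf1 (0.994), Nlrp3 (0.993) and Nckap1l (0.992). C1s1 was nearest to Col1a1 (0.998), Dcn (0.995) and Fndc1 (0.993), and C1ra to Serping1 (0.997), Dcn (0.997) and Col1a1 (0.992). C3 was nearest to Igfbp6 (0.986), Rarres2 (0.983) and Igfbp5 (0.982). Masp1 was nearest to Mycbp (0.979), A930005H10Rik (0.971) and Tvp23bos (0.966), and Cfd to Dbi (0.983), Hspa9 (0.972) and Pnpla2 (0.965).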

How the data were processed

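Nuclei of visceral fat of 2 mice were analysed, in 2 libraries. The authors aligned reads to GRCm39 with CeleScope and deposited counts, as whole UMIs per gene and called barcode, without normalization. The deposited saturation tables and totals per barcode were not used. The genes and lists were chosen with earlier results of these data known.

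Counts were log normalized, 1000 variable genes were taken without the complement and adipocyte genes, and 30 components were corrected for the library by Harmony written in numpy 2.4.6. Leiden clusters (resolution 0.1; igraph 0.11.9 and leidenalg 0.10.2) were drawn on the graph of 20 neighbours, and subclusters of every type on 16 components. Names needed 3 or more markers and 50% of a list, each marker raised by 1 on the log2 scale and present in at least 5% of the nuclei, and this rule was set after the clusters were seen. Clusters with leading markers of another class were split. Scrublet (scanpy 1.11.5) marked 1 nucleus in each library and so did not separate doublets, and none were removed.

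UMI sums per library and type were tested in edgeR 4.0.16 (R 4.3.3) with TMM, filterByExpr, the quasi-likelihood F test and the library as a block, with Benjamini-Hochberg adjustment over 16254 genes. DESeq2 1.42.0 was an alternative. The block was used since same-numbered sums come from 1 library, and between types the library differences correlated with r of 0.395 to 0.691 over 7151 genes (10 pairs). P-values rest on 2 libraries. Approximate 95% intervals of log2 differences are the estimate with its SE. On simulated counts of 16254 genes with 200 changed, the adipocyte contrast recovered 57% of 2-fold and 97% of 4-fold changes. Of the calls made there, 1.91% were false. In the measured counts, 2594 genes were called higher in adipocytes. Whether these rates hold for the measured counts was not tested. Named genes were the 9 members, other complement genes called higher in a type, paralogs of members, Itgam, 12 adipocyte RNAs, the 3 genes most alike each member, and markers. Subclusters rich in adipocyte RNA had it at 1.5 times the rest of their type or more in both libraries. Promoters and motifs were read from RefSeq tables. No sequence was printed for genes with no entry.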

Additional observations from a re-analysis of the deposited data

Results flagged for a closer look

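The called barcodes that failed the filters, 4511 in replicate 1 and 4923 in replicate 2 with medians of 900 and 689 UMIs, enter no comparison, and all 9 genes were above the level of 3 counts there. Cfd was at 5612 CPM and 1066 CPM, against 4518 and 1203 CPM in adipocytes. C3 was at 633 and 520 CPM, C1s1 at 211 and 155 CPM and C1ra at 74.8 and 85.1 CPM. C1qa was at 174 and 89.3 CPM, C1qb at 97.5 and 54.9 CPM, C1qc at 145 and 71.0 CPM and C4b at 202 and 56.3 CPM. Masp1 was at 21.2 and 47.6 CPM.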

How the results depend on the processing

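The 22 log2 fold changes of the 9 genes were each fitted under 13 alternatives. The calls of the C1q genes, C4b, C1ra, C1s1 and C3 in their leading types held in every tested one. With no replicate block, the C3 difference of mesothelial nuclei from FAPs was 1.36 and no longer passed, and the endothelial Cfd value of 1.05 likewise (adjusted p = 0.334, edgeR), so that 0 of the 9 genes were called in endothelial nuclei (in edgeR without the block) and 1 of the other complement genes; no other call of a member in its leading type changed with the block. Endothelial calls were also 0 under a mitochondrial limit of 5% (Cfd 0.81) and, chosen after seeing the data, without subclusters rich in adipocyte RNA, where Cfd was at -0.060 against the other types and at -1.69 against adipocytes alone. With 15 components it was at 0.22, and at -0.83 against adipocytes. The cause was not tested. DESeq2 left 1 of the 9 genes in adipocytes, since Cfd was at 0.94. The median of all genes in adipocytes was -0.23 in DESeq2 and 0.03 in the main fit, a shift of -0.26. Relative to these medians Cfd was at 1.17 and 1.16. DESeq2 also differs in its count model and test, so the part of scaling in the lost call was not tested. Among other complement genes, adipocytes had 1 at a resolution of 0.3 and 1 with no integration, and FAPs had 3 with no integration. Masp1 exceeded endothelial nuclei by 1.21 (adjusted p = 0.0133, edgeR) with no low-count filter, and C1s1 in FAPs exceeded mesothelial nuclei by 0.75 (adjusted p = 0.0238, edgeR) with 15 components. Leaving out a library leaves no residual degrees of freedom and gave values with no test, and no counts. Keeping only mesothelial subclusters with markers left out 0 nuclei. Depth limits Masp1, with 1653 UMIs in all nuclei.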
